A study of Homo sapiens with 6 samples.

Results

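The genes described here code for the proteins of the mitochondrial ribosome that carry an MRPL or MRPS symbol. They were chosen by their symbols, with earlier results of these data known. The rule took every symbol in any of the 6 libraries that begins with MRPL or MRPS followed by a digit. This gave 79 of 17789 symbols. Of these, 47 named a protein of the large subunit (MRPL) and 29 a protein of the small subunit (MRPS), so that 76 coded for proteins. The other 3 were the pseudogene symbols MRPL42P5 and MRPL45P2 and the antisense symbol MRPL23-AS1, which are given separately at the end. The 76 protein genes lay on 21 chromosomes.

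RNA of cells labelled A549, a line from a lung carcinoma of the non-small-cell type, was sequenced in 3 control libraries labelled wild type and 3 libraries labelled FOXD3 knockdown. FOXD3 is a forkhead transcription factor, and the comparison asks which transcripts differ once it has been lowered. The labels describe an siRNA pool against FOXD3 given with a lipid transfection reagent, with the knockdown checked 72 h after transfection. They describe no control siRNA, so effects of the siRNA and its transfection cannot be told apart from those of lowered FOXD3. They also do not say whether a group's libraries stem from different cultures. Each p-value therefore measures the spread among these libraries only, which may be technical. All 6 libraries were grown in the same serum-containing medium, per the labels' protocols.

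Mitochondria translate their own small set of messages, which code for core subunits of the respiratory chain and of ATP synthase, on a ribosome that is separate from the one in the cytosol. Its RNAs are transcribed from mitochondrial DNA, whereas its proteins are encoded in the nucleus, made in the cytosol and imported. Many of these proteins are homologues of bacterial ribosomal proteins, and many others arose in the mitochondrial lineage. The large subunit joins amino acids, the small subunit reads the message, and the number in a symbol often follows the bacterial protein.

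Levels are in FPKM, fragments normalised to transcript length and to library size, as the authors deposited them. The sum over all symbols ranged from 596623 to 618389 FPKM per library, and 16229 to 16288 symbols were listed in the control libraries against 15651 to 15754 in the knockdown libraries. A rough estimate of 7200000 to 8020000 fragments per library made 1 FPKM on a 1 kb transcript worth about 7.20 to 8.02 fragments. FOXD3 was listed at 0.152, 0.291 and 0.134 FPKM in the control libraries, at 0.0749 FPKM in knockdown replicate 2, and was not listed in knockdown replicates 1 and 3. The knockdown libraries were all below the controls, at levels of few fragments (exact two-sided permutation p = 0.1, the smallest that 3 libraries against 3 allow). Epithelial markers were abundant, KRT8 at 2059 FPKM in control and 3203 FPKM in knockdown libraries, and the 6 of them summed to 5260 to 6257 FPKM in control against 7395 to 7460 FPKM in knockdown libraries. Of these 6 markers 3 rose and 2 fell, CDH1 from 48.2 to 41.3 FPKM and CLDN4 from 222 to 184 FPKM, and KRT19 did not pass the test. The 5 listed leukocyte markers summed to 2.71 to 4.04 FPKM in control and 1.48 to 2.03 FPKM in knockdown libraries, with CD3E and LYZ at or near 0. The 4 fibroblast and endothelial markers summed to 6.23 to 7.58 FPKM in control and 4.91 to 5.37 FPKM in knockdown libraries, with COL3A1 and PECAM1 near 0. The part of these markers in the results below was not tested. CDKN2A, which is known to be deleted in A549, stood at 154 ± 0.814 FPKM in control and 128 ± 1.55 FPKM in knockdown libraries (SD, n = 3 each), which goes against the label. The 5 listed genes chosen to check the A549 label summed to 959 to 1006 FPKM in control and 1496 to 1553 FPKM in knockdown libraries. This sum includes CDKN2A, which was in the set as a gene that A549 lacks. Most of this sum came from AKR1B10 and AKR1C1, reductases abundant in A549, at 391 and 431 FPKM in control and 752 and 651 FPKM in knockdown libraries. VIM, also chosen to mark A549, was low, at 3.79 FPKM in control and 1.17 FPKM in knockdown libraries. SFTPC was at or near 0.

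Transcripts of mitochondrial ribosomal proteins were mostly higher in the FOXD3 knockdown libraries. Of the 76 protein genes, 42 rose, 5 fell and 29 did not pass the test (limma on log2(FPKM + 1), two-sided, adjusted p under 0.05). Over all 13340 genes tested, 25.6% were called higher and 37.9% lower, and among the 9170 genes of at least 5 FPKM 32.2% were higher and 35.6% lower. All 79 symbols passed the filter of a mean of 0.5 FPKM. The median change of the 76 genes was 0.23 on the log2(FPKM + 1) scale, knockdown minus control (interquartile range 0.02 to 0.50), and 59 of them were above 0. The median over all genes tested was -0.09. Of the called members 89.4% were higher, against 40.4% of all called genes, and these shares were 92.6% and 49.0% under median scaling and 83.7% and 52.4% after quantile normalization. In 43 of the genes all 3 knockdown libraries lay above all 3 controls, in 7 all lay below, and in 26 the groups overlapped. Such separation was seen above in 28.3% and below in 40.8% of all genes tested. The changes were moderate: MRPL20 and MRPL1 were the 2 members called with a log2 change of at least 1, beside 1.71% of all genes tested. These are bulk libraries, in which fewer cells of a type and less RNA per cell cannot be told apart.

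**Figure D1:**
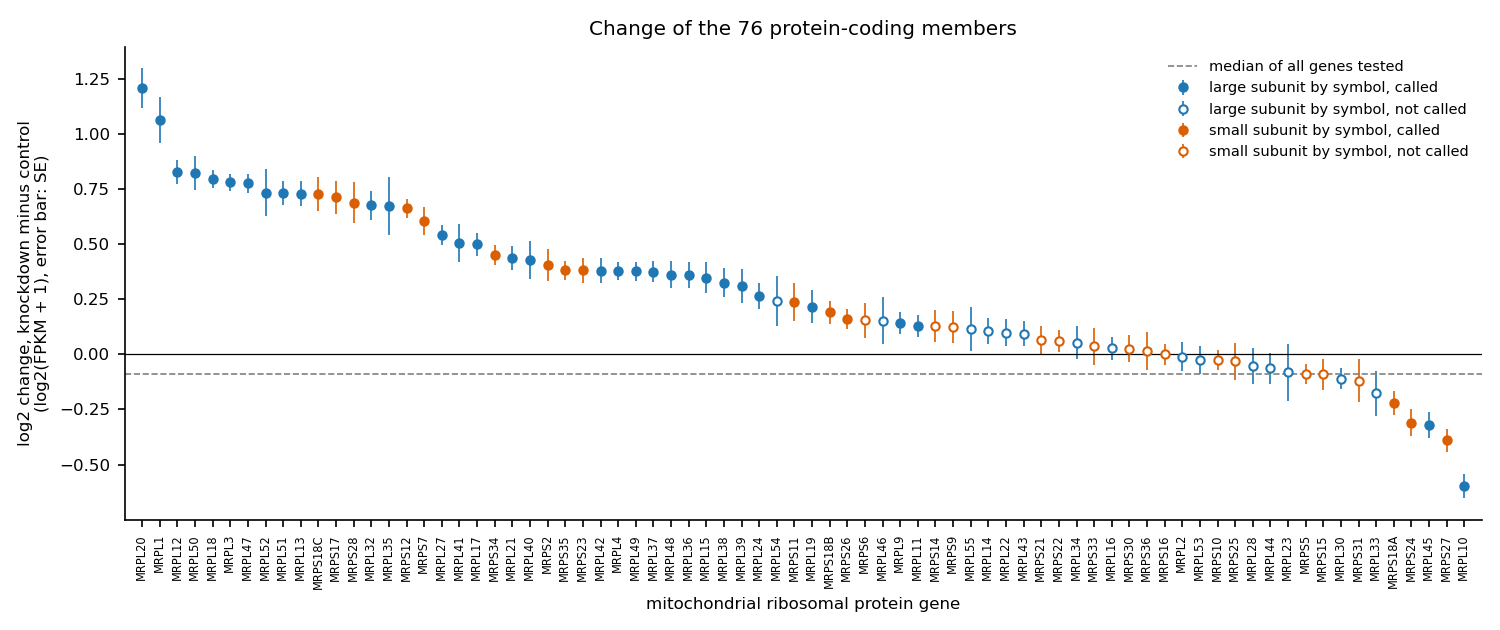
Log2 change (knockdown minus control, on log2(FPKM + 1)) of each of the 76 protein genes in order of size, with SE bars, large-subunit symbols in blue and small-subunit symbols in orange, filled where the limma call passed. MRPL20 stands highest at 1.21 and MRPL10 lowest at -0.60, and the dashed line marks the median of all genes tested at -0.09.

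Summed levels of both subunits were higher in each knockdown library than in any control. The 47 large-subunit genes summed to 2437, 2289 and 2274 FPKM in the control libraries and to 3075, 3153 and 3019 FPKM in the knockdown libraries. The 29 small-subunit genes summed to 1602, 1552 and 1525 FPKM in control and to 1798, 1833 and 1781 FPKM in knockdown libraries. The lowest knockdown library exceeded the highest control by more in the large-subunit sum than in the small-subunit sum. The large-subunit sum went from 2333 ± 90.1 to 3082 ± 67.0 FPKM, a rise of 32.1%, and the small-subunit sum from 1560 ± 38.8 to 1804 ± 26.2 FPKM, a rise of 15.7% (SD, n = 3 each). The small-to-large ratio of the sums was 0.657, 0.678 and 0.671 in control against 0.585, 0.581 and 0.590 in knockdown libraries. The ratio was thus lower in each knockdown library than in any control, by 12.4% between the means. Median levels gave the reverse order. The median FPKM of the large-subunit genes went from 43.1 in control to 46.1 in knockdown libraries, a rise of 7.0%. That of the small-subunit genes went from 40.9 to 47.9, a rise of 17.2% (means of 3 libraries). As a share of all FPKM, the members held 0.653%, 0.635% and 0.620% of the control libraries and 0.814%, 0.811% and 0.805% of the knockdown libraries.

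**Figure D2:**
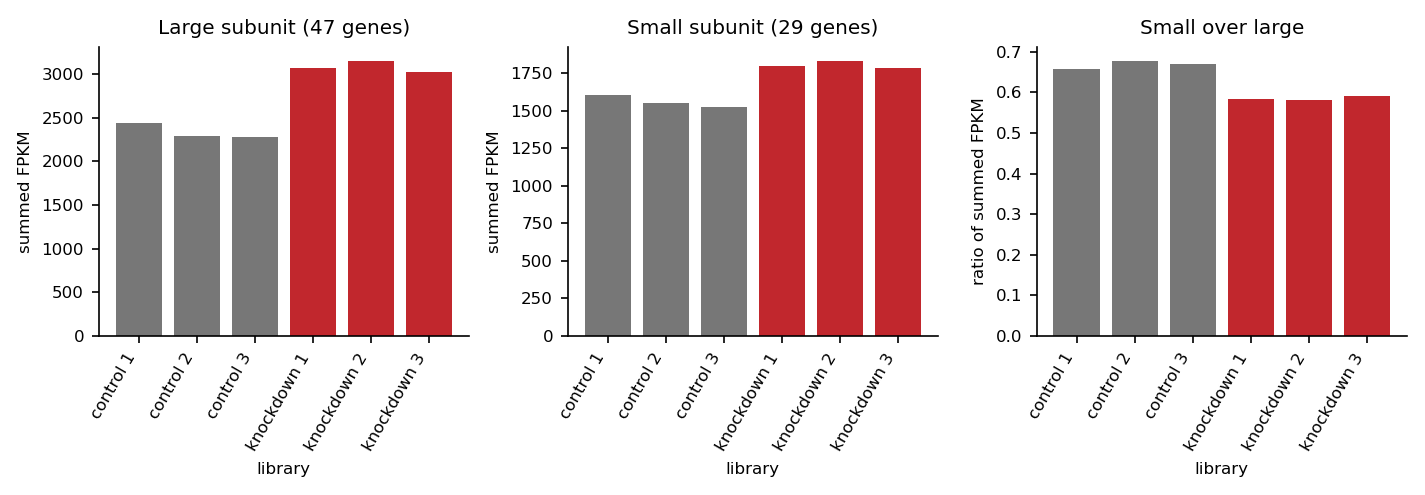
Summed FPKM of the 47 large-subunit genes (left) and the 29 small-subunit genes (middle) and their ratio (right), 1 bar per library, controls in grey and knockdown libraries in red. Both sums are higher in every knockdown library, and the ratio falls from 0.657 to 0.678 in controls to 0.581 to 0.590.

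By symbol, 30 of the 47 large-subunit genes rose and 2 fell, with a median log2 change of 0.35, and 12 of the 29 small-subunit genes rose and 3 fell, with a median of 0.12 (0.066 without control replicate 1, 0.21 under median scaling). After quantile normalization 5 of the 29 fell, where 29.3% of all genes tested were lower. In the main fit 63.8% of the large-subunit genes were higher and 4.26% lower, and 41.4% and 10.3% of the small-subunit genes. The shares of all genes tested were 25.6% higher and 37.9% lower, and 32.2% and 35.6% among those of at least 5 FPKM. The difference between the subunits' medians, 0.22, has no test here. MRPS18A and MRPS30 carry small-subunit symbols but sit in the large subunit, and MRPS36 is now assigned to another complex, the alpha-ketoglutarate dehydrogenase complex. Counted by location, 30 of 49 large-subunit genes rose and 3 fell (median 0.33), and 12 of 26 small-subunit genes rose and 2 fell (median 0.14). Grouped by origin, of 46 genes with a bacterial homologue 26 rose and 2 fell (median 0.23), and of 27 mitochondria-specific genes 16 rose and 2 fell (median 0.31). The grouping followed the current naming of the proteins. It left out MRPS18A, MRPS30 and MRPS36, and it counted MRPS18B, though related to bacterial S18, as mitochondria-specific. Within the large subunit, 19 of 30 homologues and 11 of 17 mitochondria-specific genes rose (medians 0.31 and 0.36), and within the small subunit 7 of 16 and 5 of 10 (medians 0.14 and 0.11).

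MRPL20, whose bacterial counterpart joins the large subunit early in assembly, rose the most. It stood at 87.5, 68.7 and 68.1 FPKM in the control libraries and at 173, 173 and 171 FPKM in the knockdown libraries. The groups did not overlap, and control replicate 1 was the highest control. The mean went from 74.7 ± 11.0 to 173 ± 1.13 FPKM (SD, n = 3 each), 2.31-fold, with a log2 change of 1.21 (SE 0.09, adjusted p = 1.37e-05). The MRPL20 locus (gene 55052, hg19 chr1:1337276-1342693) overlaps the gene LOC148413, and without a stated strand setting their reads cannot be separated. Its promoter window, 250 bases before to 50 after the start in RefSeq on GRCh38.p14 (minus strand, chr1:1407244-1407543), is shown whole because it holds both of the letter strings described further down. Capitals mark 2 copies of CCGGAAG, the core bound by ETS factors such as GABP, and 1 copy of AAGATGGC, the core bound by YY1.
MRPL20: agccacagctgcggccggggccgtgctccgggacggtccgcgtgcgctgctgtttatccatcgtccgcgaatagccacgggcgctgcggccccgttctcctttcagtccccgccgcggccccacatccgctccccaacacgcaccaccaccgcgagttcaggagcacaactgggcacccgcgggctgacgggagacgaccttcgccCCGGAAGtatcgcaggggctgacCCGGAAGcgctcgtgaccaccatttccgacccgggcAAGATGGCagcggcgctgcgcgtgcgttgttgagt

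The other members with large rises belong to several sites of the large subunit. MRPL1, a homologue of the protein of the mobile L1 stalk, was at 6.19, 8.64 and 7.40 FPKM in control and at 15.8, 16.7 and 16.96 FPKM in knockdown libraries. Every knockdown library lay above every control, at the lowest mean level of any called protein gene. The mean went from 7.41 ± 1.22 to 16.5 ± 0.636 FPKM (log2 change 1.06, SE 0.10, adjusted p = 5.56e-05). MRPL3, a homologue of a protein near the catalytic centre, was at 83.8, 82.6 and 86.2 FPKM in control and at 144, 147 and 145 FPKM in knockdown libraries (log2 change 0.78, SE 0.04, adjusted p = 2.03e-06). Replicates of MRPL3 lay close together in both groups and far from the other group. MRPL18, whose bacterial counterpart binds 5S ribosomal RNA, was at 56.0, 54.5 and 52.8 FPKM in control and at 97.1, 93.3 and 95.0 FPKM in knockdown libraries (log2 change 0.79, SE 0.04, adjusted p = 3.26e-06). MRPL47, the counterpart of bacterial L29 beside the exit tunnel, was at 43.9, 43.7 and 42.6 FPKM in control and at 76.6, 74.8 and 73.4 FPKM in knockdown libraries (log2 change 0.77, SE 0.04, adjusted p = 3.28e-06). Both were separated between the groups without overlap. MRPL13, a homologue of bacterial L13, went from 43.3 ± 0.223 to 72.5 ± 5.06 FPKM (SD, n = 3 each; log2 change 0.73, adjusted p = 1.57e-05).

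Among the mitochondria-specific proteins of the large subunit, MRPL50, MRPL51 and MRPL52 rose the most. MRPL51, the most abundant member over the 6 libraries, was at 181, 194 and 176 FPKM in control and at 316, 315 and 287 FPKM in knockdown libraries (log2 change 0.73, SE 0.06, adjusted p = 1.44e-05). MRPL50 was at 26.8, 24.98 and 23.4 FPKM in control and at 42.1, 50.01 and 43.1 FPKM in knockdown libraries (log2 change 0.82, SE 0.08, adjusted p = 4.80e-05). MRPL52 was at 31.7, 26.0 and 22.8 FPKM in control and at 43.7, 44.1 and 46.8 FPKM in knockdown libraries (log2 change 0.73, SE 0.10, adjusted p = 0.000435). The groups did not overlap in any of the 3 genes, and the controls of MRPL52 were the most spread. Stretches of their promoter windows, from 70 bases before to 50 after the start (RefSeq, GRCh38.p14), are shown because each holds AAGATGGC, in capitals, on one side of the start or the other. The whole window of MRPL51 also holds 2 copies of CCGGAAG on either strand, none of them within the stretch. That of MRPL52 holds 2 copies of AAGATGGC, 1 of them within the stretch. MRPL50 is at chr9:101398569-101398688 (minus strand), MRPL51 at chr12:6493213-6493332 (minus strand) and MRPL52 at chr14:22829817-22829936 (plus strand), where CTTCCGG in capitals is CCGGAAG read on the opposite strand.
MRPL50: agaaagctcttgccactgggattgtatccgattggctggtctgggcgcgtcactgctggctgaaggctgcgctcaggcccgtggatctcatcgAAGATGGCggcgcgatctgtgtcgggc
MRPL51: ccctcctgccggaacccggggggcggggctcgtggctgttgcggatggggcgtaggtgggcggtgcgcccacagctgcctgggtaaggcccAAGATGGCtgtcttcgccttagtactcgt
MRPL52: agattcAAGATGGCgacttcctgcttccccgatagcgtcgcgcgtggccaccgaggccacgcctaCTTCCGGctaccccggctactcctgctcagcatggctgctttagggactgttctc

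**Figure D3:**
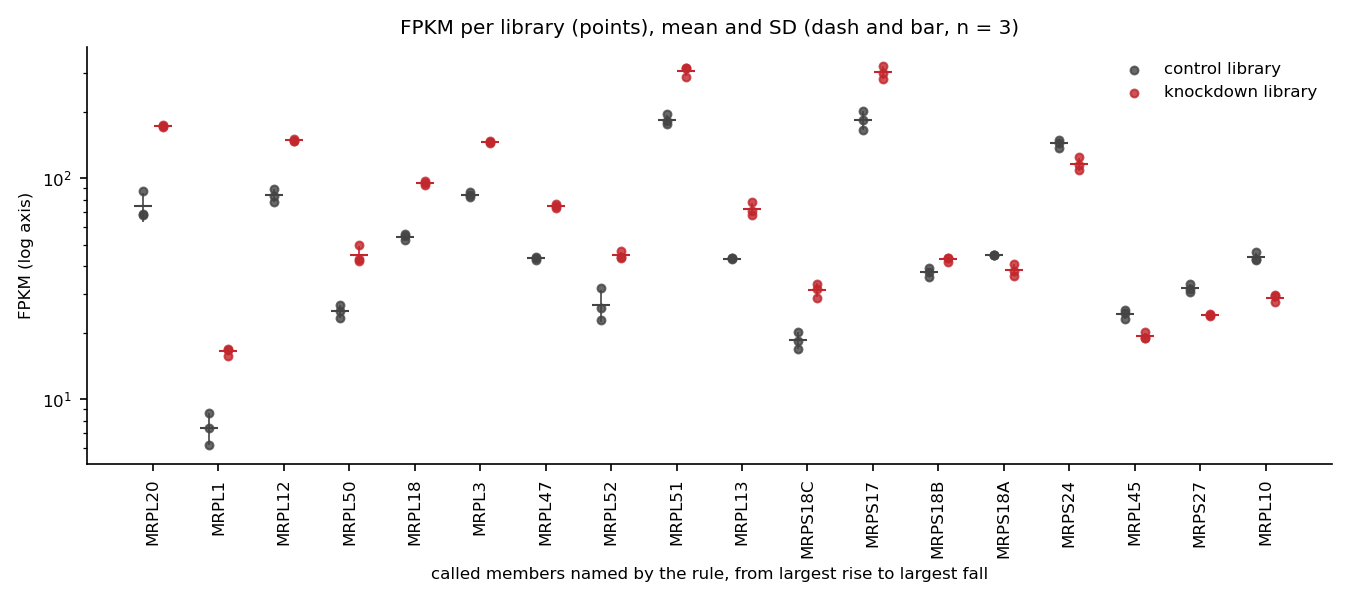
FPKM of the 18 called members that the naming rule picks, on a log axis, 1 point per library with the mean as a dash and the SD as a bar (n = 3), controls in grey and knockdown libraries in red. The 2 groups are apart in each gene, from MRPL20 at 74.7 against 173 FPKM to MRPL10 at 44.1 against 28.8 FPKM.

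Proteins of the L7/L12 stalk, which recruits translation factors to the large subunit, moved in opposite directions. MRPL12, the stalk protein itself, was at 89.8, 83.4 and 77.9 FPKM in control and at 148, 151 and 148 FPKM in knockdown libraries. MRPL10, the protein that anchors it, was at 42.7, 46.3 and 43.3 FPKM in control and at 27.5, 29.3 and 29.6 FPKM in knockdown libraries. All knockdown libraries were above the controls for MRPL12 and below them for MRPL10. The log2 change was 0.83 for MRPL12 (SE 0.05, adjusted p = 7.99e-06) and -0.60 for MRPL10 (SE 0.05, adjusted p = 3.51e-05), the largest fall of any of the 76 genes. MRPL11, at the base of the stalk, went from 60.6 ± 2.75 to 66.4 ± 2.22 FPKM (SD, n = 3 each), a log2 change of 0.13 close to the threshold (adjusted p = 0.0492). The promoter stretch of MRPL12 (RefSeq, GRCh38.p14, plus strand, chr17:81703297-81703416) is shown as a window of a strongly raised member that holds neither string, and thus has no capitals.
MRPL12: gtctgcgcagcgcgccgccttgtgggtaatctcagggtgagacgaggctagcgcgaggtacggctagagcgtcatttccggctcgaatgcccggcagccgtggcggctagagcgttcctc

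Genes for proteins around the exit tunnel were called in both directions. Besides MRPL47, the homologue MRPL24 rose from 48.5 ± 0.706 to 58.7 ± 4.47 FPKM (SD, n = 3 each; log2 change 0.27, adjusted p = 0.0047). MRPL22 was at 13.7 FPKM in control and 14.8 FPKM in knockdown libraries, and MRPL23 at 51.6 and 48.8 FPKM, and neither passed the test. MRPL45, a mitochondria-specific protein at the tunnel exit that links the ribosome to the inner membrane, was at 22.9, 25.5 and 24.6 FPKM in control and at 18.9, 20.1 and 18.9 FPKM in knockdown libraries. Its knockdown libraries all lay below the controls (log2 change -0.32, SE 0.06, adjusted p = 0.00167). OXA1L, the inner-membrane insertase that receives new chains from the tunnel, fell as well, from 92.9 ± 3.82 to 73.8 ± 3.45 FPKM (SD, n = 3 each; log2 change -0.33, adjusted p = 0.00071).

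In the small subunit, MRPS17 and MRPS18C had the largest rises. MRPS17, a homologue of an RNA-binding protein of the bacterial small subunit, was at 201, 184 and 166 FPKM in control and at 300, 322 and 281 FPKM in knockdown libraries (log2 change 0.71, SE 0.08, adjusted p = 8.67e-05). It was the second most abundant member after MRPL51, and its groups did not overlap. MRPS12, the homologue of the S12 protein of the decoding centre, went from 41.2 ± 1.27 to 65.8 ± 0.594 FPKM (SD, n = 3 each; log2 change 0.66, adjusted p = 7.44e-06). MRPS7, a homologue of a protein of the head of the subunit, went from 25.4 ± 1.83 to 39.1 ± 1.61 FPKM (SD, n = 3 each; log2 change 0.60, adjusted p = 7.8e-05). The loci of MRPS12 and MRPS7 overlap other genes, as do those of 12 of the 76 genes in all. Among the 64 without such an overlap, 35 rose and 4 fell (54.7% and 6.25%, beside 25.6% and 37.9% of all genes tested). MRPS21, the next most abundant member by the per-library values, stood at 165, 174 and 183 FPKM in control and at 167, 186 and 193 FPKM in knockdown libraries. Those groups overlapped, and MRPS21 did not pass the test (log2 change 0.07, adjusted p = 0.385, and -0.06 after quantile normalization). The authors' own comparison gives MRPS21 only 61.2 FPKM in control and 68.9 FPKM in knockdown libraries, so its rank depends on the source. The cause of this gap was not tested, and the small-subunit sums use the per-library values. The 2 least abundant members, MRPS25 at 4.66 and 4.53 FPKM and MRPS14 at 9.89 and 10.9 FPKM in control and knockdown libraries, did not pass either.

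The 3 proteins related to bacterial S18 include both rises and a fall. MRPS18C, the one in the place of bacterial S18, was at 18.3, 20.1 and 16.9 FPKM in control and at 33.2, 28.8 and 31.6 FPKM in knockdown libraries (log2 change 0.73, SE 0.08, adjusted p = 8.66e-05). MRPS18B, also in the small subunit, was at 39.3, 37.7 and 35.6 FPKM in control and at 41.8, 43.5 and 43.7 FPKM in knockdown libraries (log2 change 0.19, SE 0.05, adjusted p = 0.0121). MRPS18A, in the large subunit, was at 44.8, 45.1 and 44.9 FPKM in control and at 37.9, 41.1 and 36.3 FPKM in knockdown libraries (log2 change -0.22, SE 0.05, adjusted p = 0.0074). The groups were apart in all 3 genes, above the controls in MRPS18C and MRPS18B and below them in MRPS18A. The call for MRPS18A was lost under median scaling (adjusted p = 0.0662). Reads of MRPS18B were listed at 7 loci of chromosome 6, the reference and its alternative haplotypes, and were summed.

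Besides MRPL10, MRPL45 and MRPS18A, the members that fell were MRPS27 and MRPS24. MRPS27, a pentatricopeptide-repeat protein of the small subunit, was at 30.6, 31.4 and 33.3 FPKM in control and at 23.7, 24.1 and 24.3 FPKM in knockdown libraries (log2 change -0.39, SE 0.05, adjusted p = 0.000274). MRPS24, the counterpart of bacterial S3 at the entry of the message channel, was at 150, 145 and 137 FPKM in control and at 125, 114 and 108 FPKM in knockdown libraries (log2 change -0.31, SE 0.06, adjusted p = 0.00228). Every knockdown library lay below every control in both. The locus of MRPS24 is shared with the read-through gene URGCP-MRPS24. Promoter stretches of the 4 members that fell and had a window in the table are shown to set beside the windows above, with the same strings in capitals (RefSeq, GRCh38.p14). MRPS27 is at chr5:72320191-72320310 (minus strand), MRPL45 at chr17:38297098-38297217 (plus strand), MRPS24 at chr7:43869468-43869587 (minus strand) and MRPS18A at chr6:43687742-43687861 (minus strand).
MRPS27: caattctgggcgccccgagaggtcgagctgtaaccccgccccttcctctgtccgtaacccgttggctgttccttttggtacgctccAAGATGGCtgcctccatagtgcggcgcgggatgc
MRPL45: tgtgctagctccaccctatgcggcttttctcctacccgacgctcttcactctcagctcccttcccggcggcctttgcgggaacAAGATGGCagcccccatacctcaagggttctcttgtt
MRPS24: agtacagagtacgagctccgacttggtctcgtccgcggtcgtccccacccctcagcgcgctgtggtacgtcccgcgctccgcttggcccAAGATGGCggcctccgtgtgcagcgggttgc
MRPS18A: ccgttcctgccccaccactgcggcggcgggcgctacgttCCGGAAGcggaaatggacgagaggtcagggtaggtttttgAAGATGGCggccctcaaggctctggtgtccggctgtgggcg

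Levels of the members spanned 39.5-fold between the highest and lowest control mean, and 63 of the 76 had a mean between 10 and 100 FPKM over the 6 libraries. The coefficient of variation within a group had a median of 5.37% in control and 4.31% in knockdown libraries, with the widest spread in MRPL35 (19.6%, control) and MRPL23 (15.7%, knockdown). The order of the levels was mostly shared between the groups, with a rank correlation of 0.940 over the 76 genes. Level and change gave a Spearman rho of -0.0021 and a Pearson r of -0.015. All 3 values are across genes of the same 6 libraries, and genes are not independent replicates.

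The authors' deposited table of their own comparison lists 75 of the 76 genes, without MRPS18B. At a false discovery rate under 0.05, 20 of them were higher and 0 lower in the authors' deposited table, in which 10.9% of 12275 genes were higher and 11.2% lower. The median log2 fold change of the 75 genes in the authors' deposited table was 0.36, against 0.03 over all its genes. For MRPL10 the authors' deposited table gives a false discovery rate of 0.119, so the largest fall in the limma fit was not called there. Both calls come from the same libraries and are not independent of each other.

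Proteins of the mitochondrial ribosome without an MRPL or MRPS symbol, with OXA1L added, gave 6 genes that rose and 2 that fell of 8 (1 that fell under median scaling or without knockdown replicate 2). Shares over all genes tested were 25.6% higher and 37.9% lower. AURKAIP1, a protein of the small subunit, was at 107, 78.7 and 77.5 FPKM in control and at 144, 157 and 140 FPKM in knockdown libraries (log2 change 0.75, SE 0.12, adjusted p = 0.000656). GADD45GIP1, a protein of the large subunit, went from 54.2 ± 3.46 to 86.3 ± 3.21 FPKM (SD, n = 3 each; log2 change 0.66, adjusted p = 2.73e-05). ICT1, a peptidyl-tRNA hydrolase built into the large subunit, rose by 0.53, CHCHD1 of the small subunit by 0.38, MRP63 of the large subunit by 0.37 and PTCD3, a pentatricopeptide-repeat protein of the small subunit, by 0.23 on the log2 scale. DAP3, a GTP-binding protein of the small subunit, fell by 0.16 on the log2 scale (adjusted p = 0.0147), as OXA1L did by 0.33.

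Genes that build, operate or feed the ribosome were called in both directions. Among all genes tested 25.6% were higher and 37.9% lower. Of 31 genes for assembly and ribosomal RNA modification, 14 rose and 5 fell (median log2 change 0.17). These counts were 8 and 3 without knockdown replicate 1, 9 and 3 without control replicate 2 or 3, and 3 fell without knockdown replicate 3, with no filter and under both scalings. C1QBP, a matrix chaperone-like protein, rose from 141 ± 10.3 to 230 ± 8.69 FPKM (SD, n = 3 each; log2 change 0.70). NOA1, a GTPase of assembly, fell from 27.3 ± 1.06 to 14.004 ± 0.610 FPKM (SD, n = 3 each; log2 change -0.91), and TFB1M, the dimethyltransferase of the small ribosomal RNA, from 6.68 ± 0.410 to 3.41 ± 0.0863 FPKM (SD, n = 3 each; log2 change -0.80). Among the 76 ribosomal protein genes the lowest value was -0.60. Of 21 translation factors and related genes, 9 rose and 2 fell (median 0.16). SLIRP, which binds mitochondrial messages with LRPPRC, was at 577, 449 and 480 FPKM in control and at 965, 1015 and 1019 FPKM in knockdown libraries, higher by 1.00 on the log2 scale (SE 0.08, adjusted p = 2.5e-05). PDF, a peptide deformylase, rose by 0.65 and PTRH2, a peptidyl-tRNA hydrolase, by 0.61 on the log2 scale. The elongation factor GFM1 rose by 0.59, and the recycling factor GFM2 fell by 0.35 and the initiation factor MTIF3 by 0.38.

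Of 21 genes for mitochondrial DNA maintenance, transcription and RNA processing, 12 rose and 2 fell (median 0.32, and 0.50 after quantile normalization). Beside them, 25.6% of all genes tested were higher and 37.9% lower. Under both scalings, and without control replicate 1 or 2 or knockdown replicate 1 or 3, 1 fell. TFAM, which packages mitochondrial DNA, rose from 27.5 ± 2.98 to 46.8 ± 1.80 FPKM, and PNPT1, an RNA-degrading enzyme, from 7.72 ± 0.214 to 15.9 ± 0.771 FPKM (SD, n = 3 each; log2 changes 0.75 and 0.95). HSD17B10, a subunit of mitochondrial RNase P, rose by 0.69 on the log2 scale. Genes encoded in mitochondrial DNA, the ribosomal RNAs among them, were not analysed here. Of 12 tested regulators of nuclear genes for mitochondria, 8 rose and 2 fell (median 0.40). HCFC1 rose from 14.3 ± 1.38 to 24.0 ± 0.699 FPKM and YY1 from 29.2 ± 1.26 to 42.3 ± 1.301 FPKM (SD, n = 3 each; log2 changes 0.72 and 0.52). GABPB1, a subunit of GABP, rose by 0.67 and NRF1 by 0.33 on the log2 scale, ESRRA fell by 0.24 and SP1 by 0.36, and GABPA, at -0.08, did not pass the test (0.0038 under median scaling and 0.03 after quantile normalization). PPARGC1A was near 0 in all 6 libraries and was not tested.

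Cytosolic ribosomal proteins gave counts of the opposite kind. For comparison, 25.6% of all genes tested were higher and 37.9% lower in the main fit. These shares were 31.0% and 32.3% under median scaling, and 32.3% and 29.3% after quantile normalization. Of 82, 6 rose and 63 fell, with a median log2 change of -0.23, and 45 of 82 fell under median scaling and 46 of 82 after quantile normalization (medians -0.14 in both). Without knockdown replicate 3, or with eBayes without trend, 3 rose. The summed level of the mitochondrial members was 2.43%, 2.42% and 2.25% of the cytosolic sum in control and 3.51%, 3.55% and 3.41% in knockdown libraries. Every knockdown library was above every control in this share. Of 78 nuclear genes of the respiratory chain and ATP synthase, 32 rose and 14 fell (median 0.10). Under median scaling 40 rose and 7 fell, after quantile normalization 23 rose and 23 fell, and 9 fell without knockdown replicate 3. No test compared these groups with the members.

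**Figure D4:**
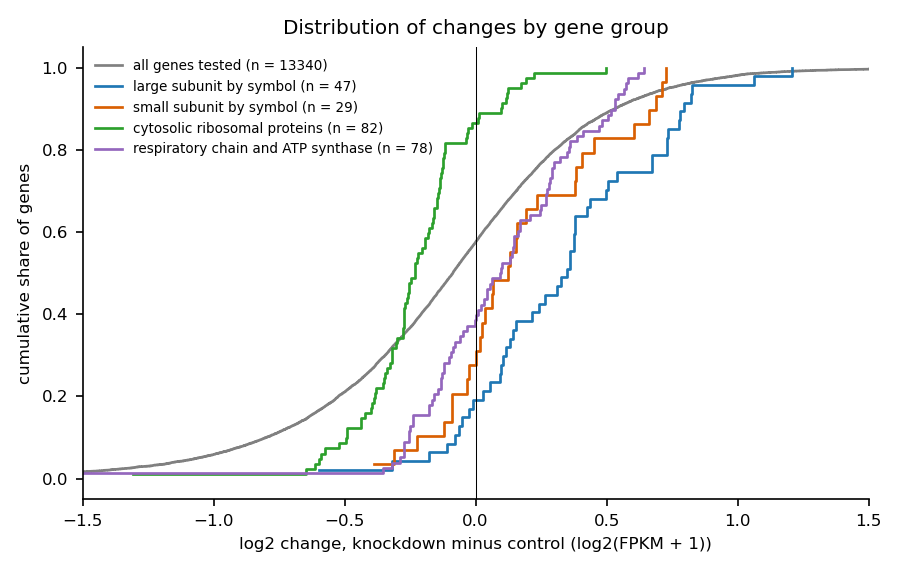
Cumulative share of genes by log2 change (knockdown minus control, on log2(FPKM + 1)) for all 13340 genes tested, the 47 large-subunit and 29 small-subunit members, 82 cytosolic ribosomal proteins and 78 nuclear genes of the respiratory chain and ATP synthase. The large-subunit curve lies to the right of the others over most of its length with a median of 0.35, and the cytosolic ribosomal proteins have a median of -0.23.

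Promoter windows (250 bases before to 50 after the start, RefSeq, GRCh38.p14) were found for 68 of the 76 protein genes and were searched on both strands for 5 strings. CCGGAAG, the ETS core, was in 41.2% of the members' windows (28 of 68), in 19.3% of the 10361 windows of genes tested and in 10.7% of all 27305 windows. AAGATGGC, the YY1 core, was in 29.4% of the members' windows (20 of 68), in 5.40% of those of genes tested and in 3.03% of all. The share of each string was highest in the members, a difference with no test here. The NRF1 palindrome (GCGCA, any base, then GCGC) was in 10.3%, 11.8% and 6.28% of the 3 sets, the E-box CACGTG in 10.3%, 10.1% and 7.43%, and the TATA box TATAAA in 4.41%, 5.77% and 11.95%. The ETS string ends and the YY1 string begins with AAG, and the 2 shared these letters in 0 members' windows and in 5 of all windows. Median GC content was 60.2% in the members' windows and 65.3% in those of genes tested. In 64 windows of cytosolic ribosomal proteins the ETS string was in 34.4% and the YY1 string in 10.9%.

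**Figure D5:**
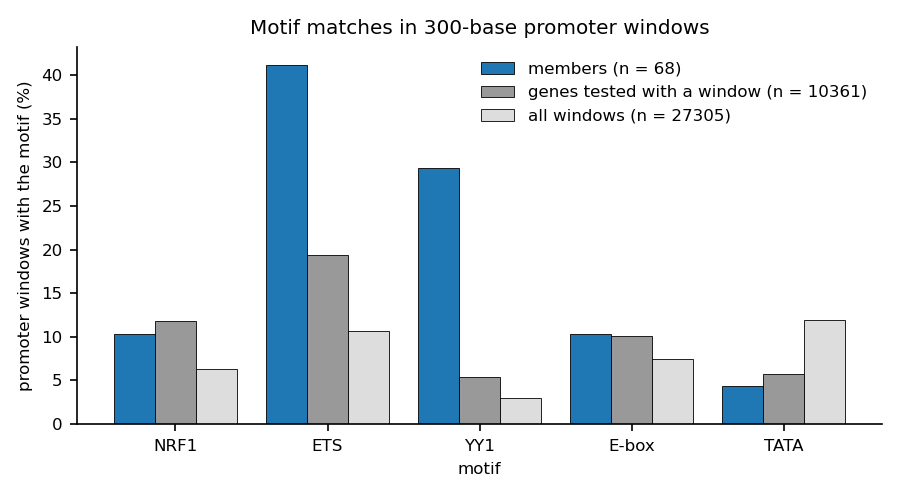
Share of promoter windows (percent) that hold each of 5 strings on either strand, for 68 members, 10361 genes tested and all 27305 windows. The ETS bar (41.2% of members) and the YY1 bar (29.4%) stand above those of the other 2 sets, and for the E-box the members (10.3%) and the genes tested (10.1%) are close.

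Both strings were found in windows of both subunits. The ETS string was in 16 of 40 large-subunit and 12 of 28 small-subunit windows, and the YY1 string in 12 of 40 and 8 of 28. Windows of 40 members held at least 1 of the 2, and 8 held both, MRPL20 among them. By call, the YY1 string was in 12 of 37 windows of genes that rose, in all 4 of those that fell and in 4 of 27 of those that did not pass. The ETS string was in 14 of 37, 1 of 4 and 13 of 27. The windows printed for MRPS27, MRPL45, MRPS24 and MRPS18A show that the YY1 string stood in members that fell as it did in MRPL50, MRPL51 and MRPL52, which rose. The median log2 change was 0.34 in members with the YY1 string and 0.16 in those without, and 0.20 both with and without the ETS string. Over all genes tested with a window the medians were 0.04 with and -0.09 without the YY1 string. Of the 21 copies of the YY1 string in members' windows, 15 (71.4%) lay after the start, and all 15 were on the strand of the gene. In all windows 51.3% of the copies lay after the start, and 379 of these 444 were on the strand of the gene. Its letters include ATG. A match is a description of the letters in a window and not a bound site.

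A gene on the opposite strand began within 1000 bp upstream of the start in 21 of the 68 members (30.9%), against 25.9% of genes tested and 18.0% of all windows. This comparison was added after the data had been seen. Of these neighbours 16 were tested, and 9 rose and 2 fell. Over all genes tested 25.6% were higher and 37.9% lower, and 32.2% and 35.6% among those of at least 5 FPKM. MRPL51 and NCAPD2, a condensin subunit, had log2 changes of 0.73 and 0.90, and MRPL18 and TCP1, a chaperonin subunit, 0.79 and 0.90. MRPS27 and PTCD2 both fell, by 0.39 and by 0.29 on the log2 scale. MRPL46 and MRPS11 face each other across 320 bp, so each was counted as the other's neighbour, and MRPS11 is among the 9 that rose. MRPS11 rose by 0.24 on the log2 scale, and MRPL46 at 0.15 did not pass the test. MRPL50, at 0.82, stands beside ZNF189 at 0.23, which did not pass. Among the 13 members that rose and had such a neighbour among the genes tested, the neighbour rose in 8 and fell in 0. How often such pairs outside the members rose together was not counted.

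The 3 symbols that name no protein were near the filter. MRPL23-AS1, an antisense symbol named after MRPL23, was at 0.759, 1.06 and 1.18 FPKM in control and at 0.462, 0.253 and 0.0547 FPKM in knockdown libraries. All knockdown libraries lay below the controls (log2 change -0.68, SE 0.15, adjusted p = 0.00521), and the call was lost after quantile normalization (adjusted p = 0.0604). Its locus (hg19 chr11:2004439-2011150) and that of MRPL23 (hg19 chr11:1968502-1977839) share no bases in the tables. The pseudogene symbols MRPL42P5 (0.848 FPKM in control and 0.300 FPKM in knockdown libraries) and MRPL45P2 (1.10 and 0.818 FPKM) did not pass the test, and MRPL42P5 was not listed in knockdown replicate 1.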

How the data were processed

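RNA-seq of 3 control and 3 FOXD3 knockdown libraries was read from the authors' deposited tables, 1 per library, which hold FPKM per gene with hg19 loci, per the file headers. TopHat2 2.0.12, Bowtie, Cufflinks 2.0.2, Cuffdiff and hg19 come from the submitters' processing notes, which state neither their roles nor their order. Which read length, strand setting and annotation were used is not given in the sources used here. A second deposited table holds the authors' own comparison, with log2 fold changes, p-values and false discovery rates, per the file headers. Its log2 values are knockdown over control, recomputed from its FPKM columns to within 1.4e-05. No counts are in the files used, so no count model was run.

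FPKM was summed over the loci of a symbol, and an unlisted symbol was set to 0. The 13340 genes averaging 0.5 FPKM or more were tested on log2(FPKM + 1), which understates changes of low genes, with limma 3.58.1 in R 4.3.3 (eBayes with trend, two-sided, Benjamini-Hochberg over all genes, threshold 0.05). There were no covariates. The fit was tested on simulated data. FOXD3 was tested by an exact permutation of libraries. Depth was estimated by reading the FPKM of each of 124 intronless genes of at least 1500 bp as 1 fragment. Only results within 5500000 to 10500000 fragments were kept, from 8 to 13 genes per library, and their median was taken. These limits were chosen after values were seen and bound the result. The estimate is therefore rough and cannot exclude a depth outside them.

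The naming rule took, among called members averaging 5 FPKM or more in the higher group, the 10 that rose and the 10 that fell by most, the 3 most and 3 least abundant, the S18-related genes, the pseudogene and antisense symbols, and up to 3 called genes of each other list. Other genes were named for their role after their values were seen. Members and lists were chosen with earlier results of these data known. Motif counts by call were added after the data had been seen. Protein sequences were not analysed here.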

Additional observations from a re-analysis of the deposited data

How the results depend on the processing

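The count of members called higher was 42 in the main fit and 37 to 50 over the 15 alternative fits. That of members called lower was 5, and 4 to 8 over those fits. They used other pseudocounts, filters, scalings or eBayes settings, the highest locus of a symbol, or left out each library in turn. In the main fit 35 were higher and 4 lower among the 64 genes without an overlapping gene. Under median scaling the members' median log2 change was 0.31, with 50 higher and 4 lower. In that fit the median over all genes was -0.01, with 31% higher and 32.3% lower, against -0.09, 25.6% and 37.9% in the main fit. After quantile normalization the members' median was 0.23, and that over all genes was 0.03, with 32.3% higher and 29.3% lower. There 8 members were lower and the median of the large-subunit genes exceeded that of the small-subunit genes by 0.15. With MRPS18A and MRPS30 counted in the large subunit this difference was 0.18. Leaving out each library in turn gave a members' median of 0.21 to 0.24 and a subunit difference of 0.21 to 0.29, with 37 to 42 members higher and 5 to 6 lower. Of the 42 higher calls 37 held in all 15 alternative fits, and of the 5 lower calls 4, the exceptions being MRPS11, MRPL19, MRPS26, MRPL9, MRPL11 and MRPS18A. MRPS18A was lost under median scaling (adjusted p = 0.0662, with a lowest value over its fits of 0.00279), and MRPL23-AS1 after quantile normalization.

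Of the named symbols that passed no test, MRPS25 turned to 0.041 under median scaling, 0.20 after quantile normalization and 0.0011 without knockdown replicate 2 (-0.081 to 0.0011 with each library left out). MRPS21 turned to -0.060 after quantile normalization, and MRPL45P2 to 0.11 after quantile normalization and 0.011 without control replicate 3 (-0.36 to 0.011 with each library left out). Their causes were not tested. MRPS14 passed the test under median scaling and quantile normalization (adjusted p = 0.0285 and 0.0303), and MRPL42P5 without control replicate 1 (0.0186). The log2 change of MRPL23-AS1 ranged from -1.79 to -0.38 with the pseudocount and normalization. No paired analysis was possible because the labels carry no replicate numbers, and the numbers used here follow the order of deposit and only name libraries. FPKM tables without counts leave the sampling error of single genes unknown, and it is largest for the pseudogene and antisense symbols.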
